A study of Sus scrofa domesticus with 16 samples.

Results

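The endothelial genes of the adrenal gland were examined as the probe sets annotated to PECAM1, CDH5, VWF, KDR, FLT1, TEK, TIE1, ENG, PLVAP or EMCN. The list was set by gene name, with earlier results of these data known. Of these 10 genes, 8 were annotated, among 6765 genes with a symbol of their own on the array, and they had 17 probe sets. PLVAP and EMCN were not analysed here. The arrays came from the adrenal glands of 16 domestic pigs, 1 array per animal. Unfamiliar pigs had been mixed: 8 animals labelled high stress came from a mixing treatment of high aggressiveness and 8 labelled low stress from one of low aggressiveness, and per the submitters these groups had been chosen for a difference in aggressive behaviour and in plasma cortisol. The labels give no age, breed or time of sampling, and no unmixed group was analysed here. The log2 signal of the Y-linked gene EIF1AY ranged over 11.46 between the arrays. It was a covariate in an alternative fit of the stress difference, and its part in the correlations was not tested. The tissue is labelled as adrenal gland with no separation of cortex from medulla, so each value is a mean over all cells of the sample.

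Endothelial cells line blood vessels. In the adrenal gland they form a dense bed of thin-walled, fenestrated capillaries and sinusoids that run from the cortex to the medulla, take up steroid hormone and carry it onward. Steroid-producing cells secrete the growth factor VEGFA, which acts on its receptors KDR and FLT1 on the endothelium, while angiopoietins act on the receptor TEK and its partner TIE1. PECAM1 and CDH5 hold endothelial cells to each other, VWF is the stored and secreted factor that tethers platelets, and ENG is a co-receptor for ligands of the TGF-beta family.

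An unlabelled division of the arrays bears on several results. By dap, a labelling control added to the RNA, 8 arrays formed a low-spike set with signals of 353 to 511 and the other 8 a high-spike set with 2940 to 4432, with 4 animals of either stress group in each. Median array signals were 127 ± 7.76 and 139 ± 6.18 in that order (SD, n = 8 each). The actin probe sets had 3' over 5' ratios, which are larger for shorter RNA, of 3.14 ± 0.61 in the low-spike and 2.01 ± 0.39 in the high-spike arrays. The ratios of GAPDH went the other way, at 1.37 ± 0.08 in the low-spike and 1.45 ± 0.09 in the high-spike arrays. Cortex markers (9 of 12 measured) had mean log2 signals of 12.23 to 12.77 per animal and chromaffin cell markers (5 of 12) 11.99 to 13.07, so both parts of the gland were represented in every sample.

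Of the 17 probe sets, 8 had a mean log2 signal at or above the 40th percentile of all probe sets (log2 6.15, a signal of 71.1), the filter used for testing. They covered 6 genes: PECAM1 and CDH5 with 2 probe sets each, and ENG, TEK, TIE1 and VWF with 1 each. Probe sets of one gene are named below by their mean signal, as the brighter and dimmer or the brightest, middle and dimmest, and the plots of signals by animal give their identifiers. Every probe set of KDR and FLT1 lay below the filter, as did 2 of TEK and 2 of VWF. Probe sets of one gene differed widely, with means of 9.74, 3.35 and 1.94 for TEK. Weak signals of the KDR and FLT1 probe sets therefore do not show that these receptors were weakly expressed. Among the members nearest the filter, the middle VWF probe set with a mean of 6.10 lay just under it and the dimmer CDH5 probe set with 7.20 was the lowest above it.

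No endothelial gene passed the test for a difference between high and low stress glands. None of the 8 tested probe sets passed limma at a Benjamini-Hochberg adjusted p under 0.05 (smallest adjusted p = 0.999), nor did any of the 14399 probe sets tested, so 0% of the background was called. Of the 8, 6 had lower and 2 higher means in high stress, against 58.4% lower among all probe sets tested. With the brightest probe set per gene the median log2 difference was -0.13 over the 6 genes (4 lower, 2 higher) and 0.00 over all 5455 genes. With each array centred on its median, the 6 genes had 3 lower and 3 higher values with a median of -0.05, while the median of all genes was 0.07. In such whole-tissue samples fewer cells of a type and less RNA per cell cannot be told apart.

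**Figure D1:**
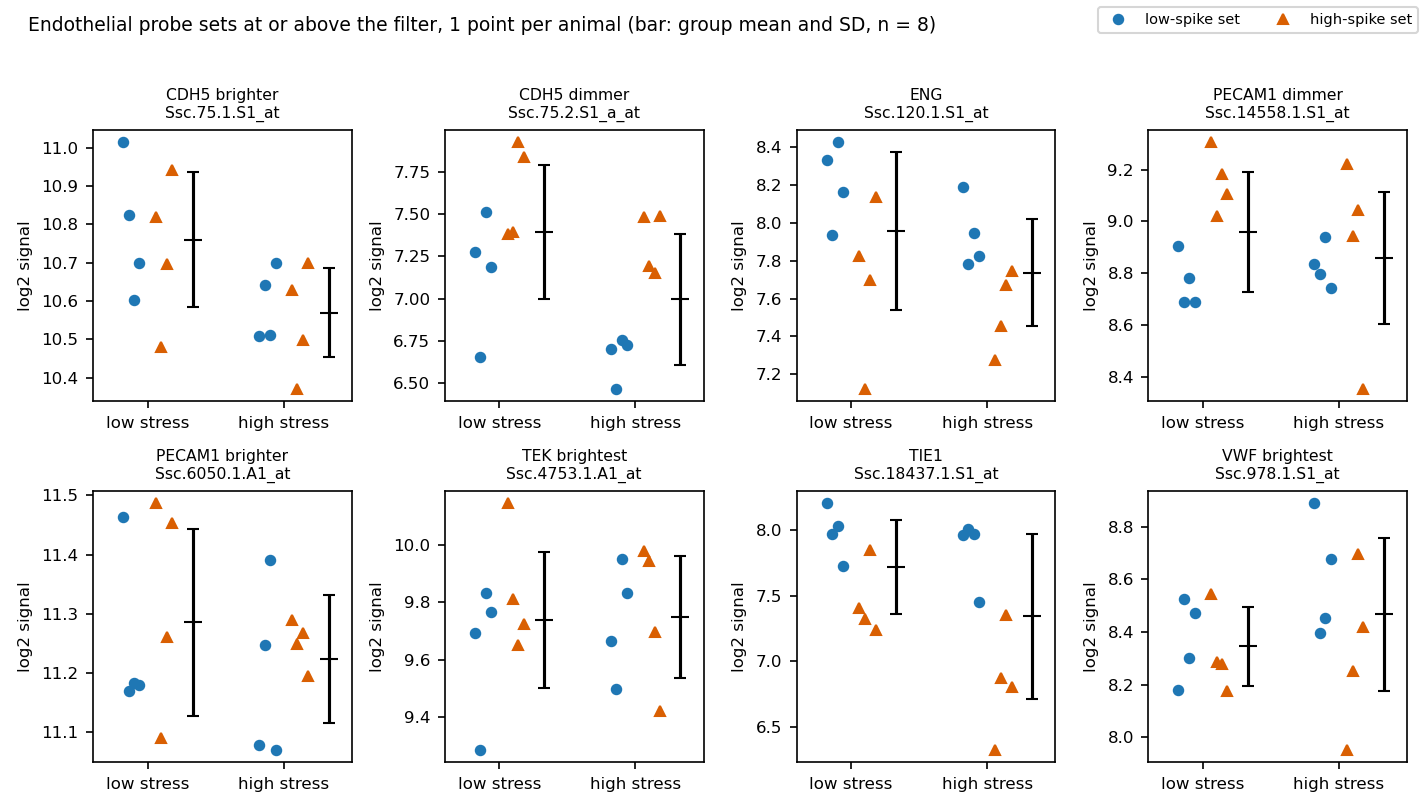
Log2 signal of the 8 endothelial probe sets at or above the filter in each animal, by stress group (x axis), with spike-in sets as circles and triangles and the group mean ± SD (n = 8) as bars. The groups overlap in every panel, and CDH5 shows all high stress animals of the brighter probe set below the low stress mean of 10.76.

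Among the genes above the filter, CDH5 had the largest difference relative to its error. CDH5, the cadherin of endothelial junctions, had log2 signals in its brighter probe set of 10.48 at the lowest, 10.76 at the median and 11.01 at the highest in low stress. The corresponding values in high stress were 10.37, 10.57 and 10.70. The groups overlapped, although 8 of 8 high stress animals lay below the low stress mean. The log2 difference was -0.19 (95% confidence interval -0.39 to 0.01; SE 0.09), a ratio of 0.876. In the dimmer probe set of the same gene low stress animals ranged from 6.65 to 7.93 with a median of 7.39 and high stress animals from 6.46 to 7.49 with a median of 6.95. Its log2 difference was -0.40 (-0.79 to -0.01), with 6 of 8 high stress animals below the low stress mean. This was the only one of the 8 with an unadjusted p under 0.05 (unadjusted p = 0.0467, adjusted p = 0.999 with limma), where 3.19% of all tested probe sets had one.

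PECAM1, the adhesion molecule also known as CD31 and shared with platelets and leukocytes, differed less. Its brighter probe set had 11.09, 11.22 and 11.49 as the lowest, median and highest log2 signal in low stress and 11.07, 11.25 and 11.39 in high stress. The ranges were nearly the same, and the log2 difference was -0.06 (95% confidence interval -0.25 to 0.13), or 0.01 with arrays centred on the median. The dimmer probe set had 8.69 to 9.31 in low stress and 8.35 to 9.22 in high stress, a log2 difference of -0.10 (-0.37 to 0.17). Within the low-spike set that difference was 0.06 and within the high-spike set -0.26.

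By the brightest probe set per gene, TIE1 had the largest log2 difference of the 6 genes and the widest spread, while the dimmer CDH5 probe set differed by slightly more. TIE1 is a receptor tyrosine kinase that modulates signalling by TEK. Its lowest, median and highest log2 signals were 7.24, 7.79 and 8.21 in low stress and 6.32, 7.40 and 8.01 in high stress. The lowest animals of the high stress group, at 6.32, 6.81 and 6.87, were all in the high-spike set, and 3 of the 8 lay above the low stress mean. The log2 difference was -0.38 (95% confidence interval -0.88 to 0.13), with -0.14 within the low-spike and -0.61 within the high-spike set. The difference between these values did not pass (unadjusted p = 0.118 for the interaction with limma). No probe set of the 14399 had an interaction that passed with limma, and 421 had an unadjusted p under 0.05.

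ENG had 7.12, 8.03 and 8.43 as its lowest, median and highest log2 signal in low stress and 7.28, 7.76 and 8.19 in high stress. The low stress group thus held both the lowest and the highest animal. The log2 difference was -0.22 (95% confidence interval -0.58 to 0.14). TEK, the angiopoietin receptor, had in its brightest probe set 9.28, 9.75 and 10.15 in low stress and 9.42, 9.76 and 9.98 in high stress. Its log2 difference was 0.01 (-0.24 to 0.26), which bounds the ratio between 0.844 and 1.20. VWF, in its brightest probe set, had 8.17, 8.29 and 8.54 in low stress and 7.95, 8.44 and 8.89 in high stress. High stress animals spread further on both sides, and the log2 difference was 0.12 (-0.14 to 0.38).

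With the spike-in set as a block the differences kept their size, since the sets are balanced, and the intervals of some narrowed. CDH5 then had unadjusted p of 0.0445 and 0.00557 in its brighter and dimmer probe set and TIE1 had 0.0250, so that 3 of the 8 were under 0.05 where 6.38% of all tested probe sets were. None passed after adjustment (adjusted p = 0.782, 0.682 and 0.740 with limma). With this block 1 of the 14399 probe sets passed (0.00694%), and it was none of the endothelial probe sets.

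**Figure D2:**
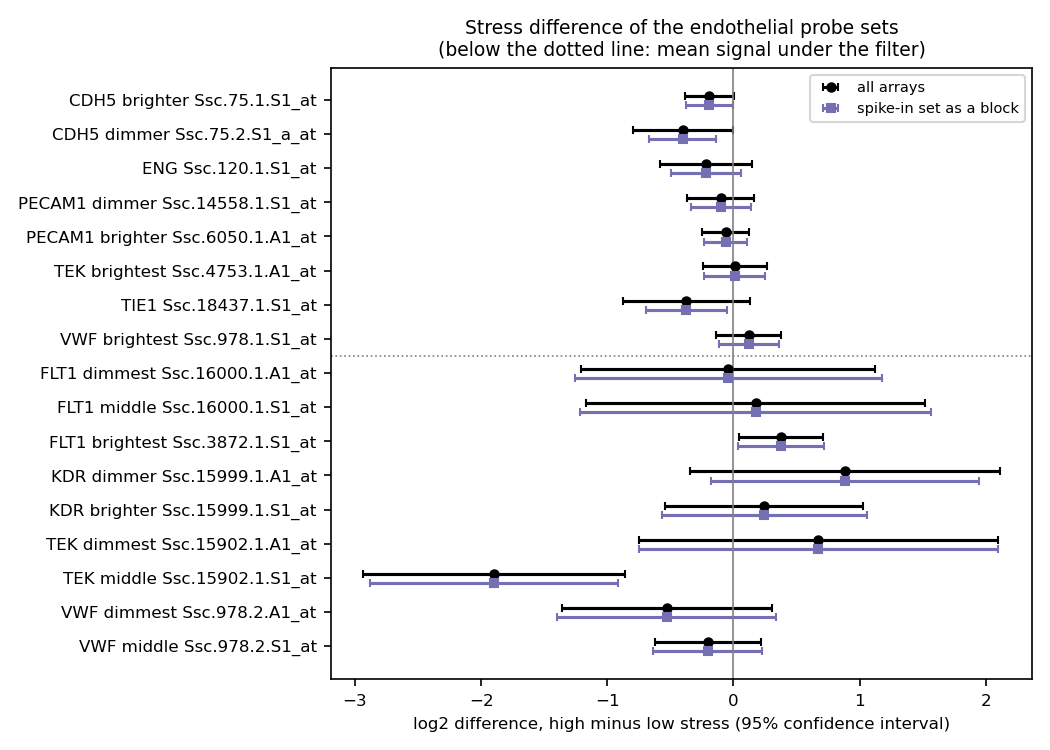
Log2 difference, high minus low stress, of all 17 endothelial probe sets with its 95% confidence interval, over all arrays (circles) and with the spike-in set as a block (squares). Above the dotted line the differences lie between -0.40 and 0.12, and over all arrays only the interval of the dimmer CDH5 probe set leaves out 0. Below the line, where mean signals are under the filter, most intervals are wider. There the interval of the middle TEK probe set lies wholly below 0 and that of the brightest FLT1 probe set wholly above 0.

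The 9 probe sets below the filter are described from a fit without the filter, where 3.78% of 23999 probe sets had an unadjusted p under 0.05 and 0 passed after adjustment. KDR, the main signalling receptor for VEGFA, had log2 signals in its brighter probe set of 3.26 to 6.22 in low stress and 4.65 to 6.17 in high stress. The groups covered much the same range, and the log2 difference was 0.24 (95% confidence interval -0.54 to 1.03). Without low stress replicate 8, the animal at 3.26, it was -0.06. The dimmer KDR probe set stayed between 0.40 and 5.46, with a log2 difference of 0.88 (-0.35 to 2.11).

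FLT1, a VEGF receptor that also occurs as a soluble trap for the ligand, had 3 probe sets. In the brightest, low stress animals had 5.11, 5.82 and 6.19 and high stress animals 5.75, 6.23 and 6.56 as lowest, median and highest log2 signal. The groups overlapped, and 7 of the 8 high stress signals exceeded the mean of the low stress group. The log2 difference was 0.38 (95% confidence interval 0.04 to 0.71; unadjusted p = 0.0288, adjusted p = 0.999 with limma). The middle FLT1 probe set had 0.18 (-1.17 to 1.52) and the dimmest -0.04 (-1.21 to 1.13).

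The lowest unadjusted p of any endothelial probe set belonged to the middle TEK probe set, at signals near the bottom of the scale. In low stress its log2 signals were 4.05 to 5.39 in 7 animals and 1.86 in replicate 7, and in high stress 0.80 to 4.03 with a median of 2.45. Apart from that animal the lowest low stress value of 4.05 lay just above the highest high stress value of 4.03. How many of all probe sets would separate after leaving out 1 animal was not counted. The log2 difference was -1.90 (95% confidence interval -2.94 to -0.86; unadjusted p = 0.00136, adjusted p = 0.999 with limma), and -0.62 after a pseudocount of 23.5 was added to every signal. All its signals lay at or below 42.0, against the filter value of 71.1. The brightest TEK probe set showed no such difference (0.01, above), and the dimmest, which is listed under the same accession as the middle one, had 0.67 (-0.75 to 2.09).

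VWF had -0.20 (95% confidence interval -0.62 to 0.22) in its middle and -0.53 (-1.36 to 0.31) in its dimmest probe set, against 0.12 in the brightest. Probe sets of TEK and VWF therefore did not all point one way, and none of these differences passed.

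**Figure D3:**
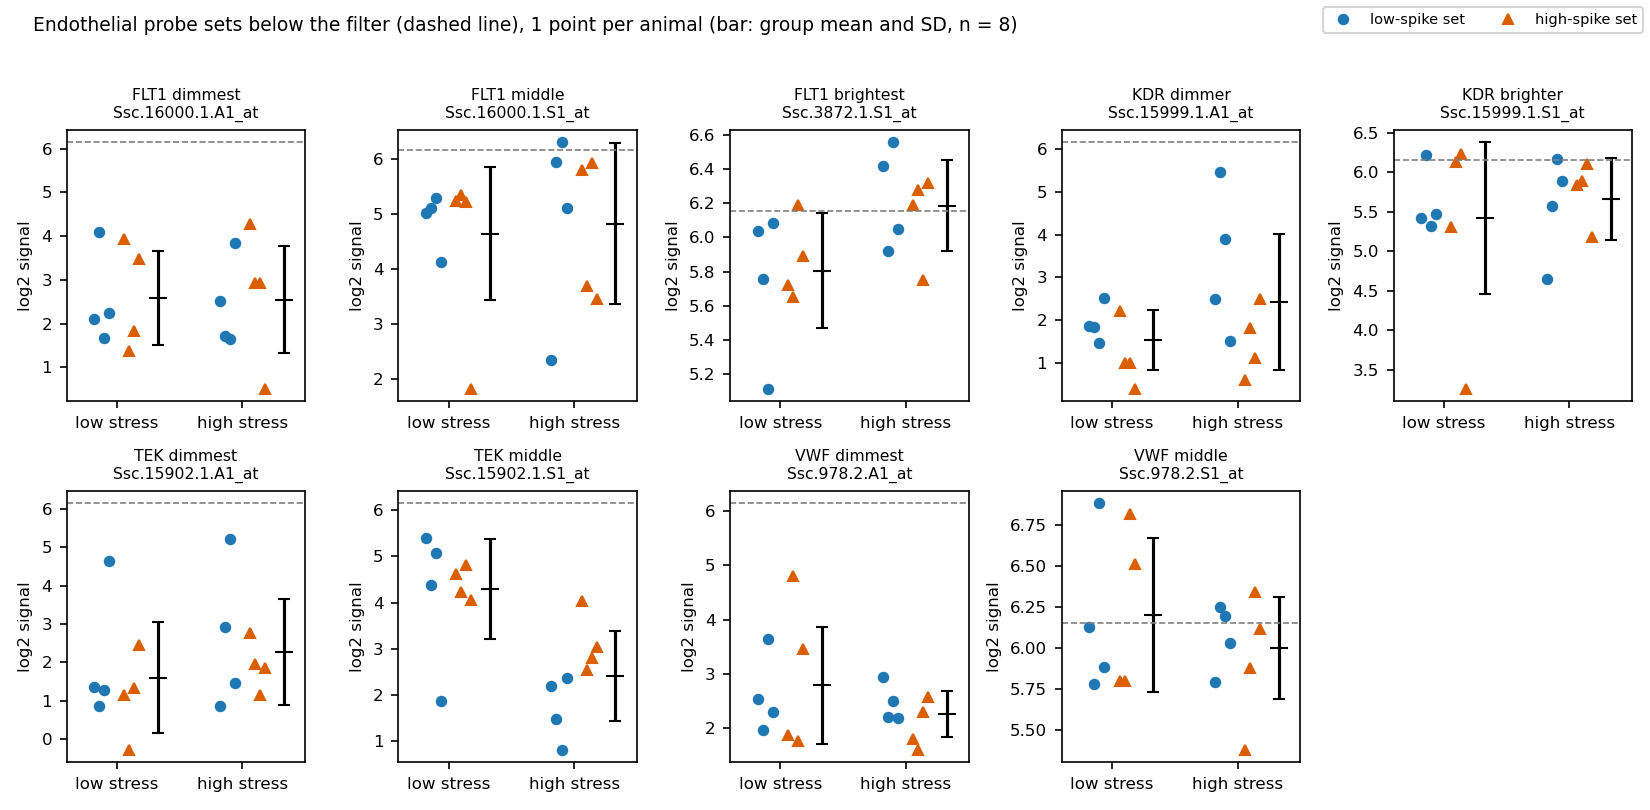
Log2 signal of the 9 endothelial probe sets below the filter (dashed line, log2 6.15) in each animal, by stress group and spike-in set, with the group mean ± SD (n = 8). The middle TEK probe set shows 7 low stress animals at 4.05 to 5.39 and 1 at 1.86, with high stress animals at 0.80 to 4.03. The groups overlap in every panel.

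Some of these genes differed between the spike-in sets. With stress in the same limma fit, 3 of the 8 tested probe sets differed between the spike-in sets at an adjusted p under 0.05, where 40.1% of all tested probe sets did. TIE1 was lower in the high-spike set, at 7.15 ± 0.47 against 7.92 ± 0.23 on the log2 scale (SD, n = 8 each; log2 difference -0.77, adjusted p = 0.000986). ENG was lower as well, at 7.62 ± 0.32 against 8.08 ± 0.24 (-0.46, adjusted p = 0.0108). In both genes the sets overlapped. The background for lower values was 16.3%. The dimmer CDH5 probe set was higher in the high-spike set, at 7.48 ± 0.28 against 6.91 ± 0.37 (0.57, adjusted p = 0.00206), where 23.7% of all tested probe sets were higher.

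The brighter CDH5 probe set did not follow, with a log2 difference between the sets of -0.05 (adjusted p = 0.706 with limma). PECAM1 had 0.22 and 0.06 in its dimmer and brighter probe set and TEK 0.11, none of which passed. After median centring the brighter PECAM1 probe set had -0.07 and TEK -0.02. VWF had -0.16 (adjusted p = 0.271), but passed after quantile normalization (-0.29, adjusted p = 0.0459) and after median centring (-0.29, adjusted p = 0.0347). Centring moved the median set difference of all tested probe sets from -0.02 to -0.15. The part of RNA length in these differences was not tested.

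Since the sets differ, covariation between animals was measured within each set of 8 arrays. Each set holds 4 animals of either stress group. Stress was not held fixed, so any difference between the stress groups enters these correlations. The 6 genes above the filter gave 15 pairs, or 30 correlations over both sets, and none passed an exact two-sided permutation test over all pairings after Benjamini-Hochberg adjustment (smallest adjusted p = 0.306 for Pearson's r and 0.0724 for Spearman's rho). Before adjustment 4 of the 30 had p under 0.05 by either measure. The median r was 0.17 in the low-spike and 0.20 in the high-spike set, against 0.01 over all pairs of tested probe sets in each. Within the low-spike set the median was -0.19 without low stress replicate 2. After median centring it was -0.01 in the low-spike and -0.02 in the high-spike set. Of the 15 pairs, 7 had an r above 0 in both sets, 4 below 0 in both, and 4 changed sign.

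CDH5, ENG and PECAM1 had the highest correlations in the high-spike set. CDH5 and ENG had r = 0.77 (rho = 0.88; exact permutation p = 0.0264 and 0.00724, adjusted 0.306 and 0.0724), and r = 0.67 without the 2 arrays farthest from the CDH5 median. CDH5 and PECAM1 had r = 0.72 (rho = 0.62; exact permutation p = 0.0408 and 0.115, adjusted 0.306 and 0.690), and r = 0.74 without the 2 farthest arrays. ENG and PECAM1 had r = 0.74 (rho = 0.57; exact permutation p = 0.0352 and 0.151, adjusted 0.306 and 0.756). Without the 2 arrays farthest from the ENG median r was 0.31. Leaving them out also narrows the range of ENG, so the drop cannot show that the relation rested on these arrays. After median centring these 3 correlations were 0.74, 0.76 and 0.70, in the same order. In the low-spike set the same pairs had r of 0.18, 0.41 and 0.19, and -0.21, 0.48 and -0.01 after median centring. An r of 0.5 or more was found for 4 of 15 pairs in the high-spike and 1 of 15 in the low-spike set, where 14.8% and 11.8% of all pairs of tested probe sets reached it. An r of -0.5 or less was found for 0 of 15 pairs in the high-spike set, against 13.8% of all pairs. In the low-spike set 3 of 15 had one, against 10.7%.

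In the low-spike set VWF had negative r with each of the other 5 genes, none of which passed. Its r was -0.76 with PECAM1 (rho = -0.88; exact permutation p = 0.0298 and 0.00724, adjusted 0.306 and 0.0724), and -0.84 without the 2 arrays farthest from the PECAM1 median. Median centring brought it to -0.37. With TIE1 rho was -0.88 (exact permutation p = 0.00724, adjusted 0.0724). The r with TIE1 was -0.53 (exact permutation p = 0.173, adjusted 0.715), and -0.72 without the 2 arrays farthest from the TIE1 median. With CDH5 r was -0.54, but 0.45 without the 2 arrays farthest from the CDH5 median. With ENG it was -0.33, but 0.46 without the 2 arrays farthest from the ENG median. With TEK it was -0.05, and 0.03 after median centring. In the high-spike set VWF had 0.07 with PECAM1 and 0.51 with TIE1. PECAM1 and TIE1 had r = 0.65 in the low-spike set (rho = 0.83; exact permutation p = 0.0767 and 0.0154, adjusted 0.460 and 0.115) and 0.12 in the high-spike set.

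**Figure D4:**
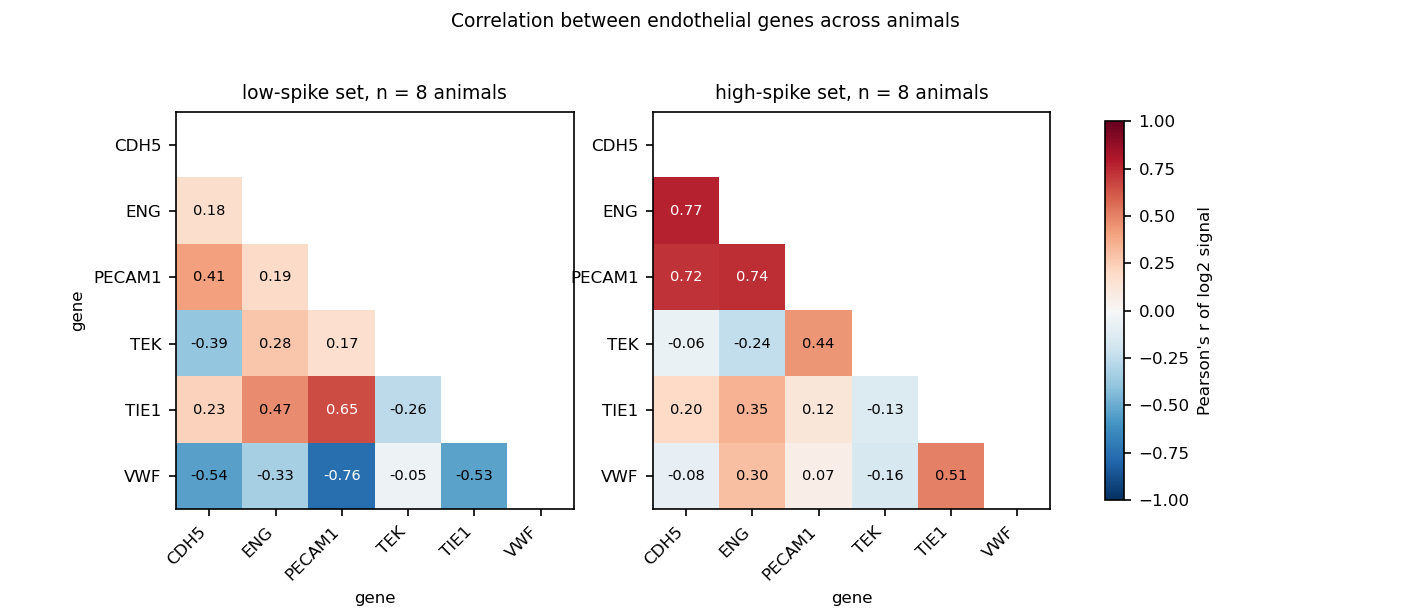
Pearson's r between the log2 signals of 6 endothelial genes across the 8 animals of each spike-in set (left, low-spike; right, high-spike), with colour from blue (-1) to red (1). CDH5, ENG and PECAM1 have r of 0.72 to 0.77 with each other on the right and 0.18 to 0.41 on the left, and VWF has r between -0.76 and -0.05 with all others on the left.

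The 2 PECAM1 probe sets correlated at r = 0.70 in the low-spike and 0.49 in the high-spike set, and the 2 CDH5 probe sets at 0.28 and 0.69 (exact permutation p = 0.0528, 0.244, 0.515 and 0.0572, smallest adjusted p = 0.114). Without the 2 farthest arrays, which also narrows the range, these were -0.15, 0.33, -0.20 and 0.41 in the same order. Within a set and stress group the log2 SD was 0.14 for the brighter PECAM1 and 0.16 for the brighter CDH5 probe set. The median over all tested probe sets was 0.27. These 2 probe sets were the brightest of the 17, and the part of signal level in their SD was not tested. In the dimmer probe sets of PECAM1 and CDH5 the SD was 0.21 and 0.26. It was 0.22 for VWF, 0.23 for TEK, 0.28 for ENG and 0.30 for TIE1.

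The 6 genes were also set beside 10 measures of the arrays and of other cell types, which gave 120 correlations. None passed (smallest adjusted p = 0.152 for r and 0.615 for rho), and before adjustment 5 had an exact permutation p under 0.05 by r and 7 by rho. Here the 2 farthest arrays were those farthest from the median of the measure, and leaving them out also narrows its range. PECAM1 had r = -0.90 with the mean of the chromaffin cell markers in the low-spike set (rho = -0.83; exact permutation p = 0.00139 and 0.0154, adjusted 0.152 and 0.615), and -0.71 without the 2 farthest arrays. TEK had r = 0.90 with the mean of 6 leukocyte markers there (rho = 0.83; exact permutation p = 0.00253 and 0.0154, adjusted 0.152 and 0.615), and 0.57 without them. TIE1 followed the array median in the high-spike set at r = 0.82 (rho = 0.88; exact permutation p = 0.0133 and 0.00724, adjusted 0.400 and 0.615), and at 0.79 without the 2 farthest arrays. ENG did so in the low-spike set at r = 0.75 (rho = 0.74; exact permutation p = 0.0400 and 0.0458, adjusted 0.807 and 0.767), and at 0.61 without them. ENG also had r = 0.84 with the cortex markers in the high-spike set (rho = 0.69; exact permutation p = 0.0113 and 0.0694, adjusted 0.400 and 0.767), and 0.40 without the 2 farthest arrays. By rank alone, PECAM1 went with the 3' over 5' ratio of GAPDH in the high-spike set (r = 0.61, rho = 0.79; exact permutation p = 0.0878 and 0.0279, adjusted 0.807 and 0.670), with r = 0.86 without the 2 farthest arrays. In the low-spike set TEK had rho = -0.81 with the fibroblast markers and -0.76 with the platelet markers (exact permutation p = 0.0218 and 0.0368, adjusted 0.653 and 0.735).

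Markers of the other cells that share some of these genes overlapped between the stress groups. The mean log2 signal of 3 of 9 platelet markers was 6.55 to 7.32 in high stress and 6.70 to 7.38 in low stress. For 6 of 15 leukocyte markers it was 7.54 to 8.62 and 7.66 to 8.32, and for 10 of 14 smooth muscle and pericyte markers 9.47 to 10.24 and 9.25 to 10.15, in the same order. Their part in the values of the endothelial genes was not tested.

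Other genes of vessels likewise showed no difference that passed. The 10 lists of vascular genes named 175 genes, of which 79 were tested; 36 had higher and 43 lower means in high stress, with a median log2 difference of -0.02. None passed limma after adjustment, without or with the block. Of the 79, 4 had an unadjusted p under 0.05, or 5.06%, against 3.01% of all 5455 genes on the same basis. For the counts by direction below, 50.2% of all genes were higher in high stress, 54.6% after quantile normalization and 69.7% after median centring, so centring moved genes upward as a whole.

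The growth factor side gave no common direction. Of 4 tested ligands and co-receptors of VEGF and angiopoietin signalling, 2 were higher and 2 lower, and with arrays centred on the median 3 were higher. VEGFA had log2 signals of 11.60 ± 0.09 under high stress against 11.50 ± 0.18 under low stress (SD, n = 8 each), a log2 difference of 0.10 (95% confidence interval -0.09 to 0.30). ANGPT1, the ligand that activates TEK, had -0.34 (-1.04 to 0.37). Of 8 TGF-beta and BMP receptors and SMADs, the family in which ENG acts, 6 were lower and 2 higher with a median of -0.13, among them SMAD1 with -0.11 and the target gene ID1 with 0.24.

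In 3 further lists more genes had lower than higher means in high stress, by a margin that changed with the scaling. Of 10 transcription factors 8 were lower (median log2 difference -0.08), and 5 after median centring. LMO2, a partner of blood and endothelial transcription factors, had -0.21 (SE 0.10), and NR2F2, the factor of venous identity, -0.18 (SE 0.11). All 5 tested Notch pathway genes were lower (median -0.17), and 4 of 5 after median centring. RBPJ, the DNA-binding factor of Notch, had -0.37 (SE 0.27) and DLL4, an endothelial Notch ligand, -0.17 (SE 0.13). Of 6 genes of fenestrated, sinusoidal and lymphatic endothelium 5 were lower (median -0.14), or 4 under either scaling; the scavenger receptor MRC1 had -0.26 (SE 0.21) and the Fc receptor FCGR2B -0.21 (SE 0.23).

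Of 12 genes of vascular tone and caveolae 10 had higher means in high stress (median log2 difference 0.08), against 50.2% of all genes. Of the 10 tested smooth muscle and pericyte markers 8 were higher (median 0.05). The contractile genes TPM2 and TAGLN had 0.57 (SE 0.26) and 0.50 (SE 0.20), each more than any of the 12 vessel tone genes, and neither passed. The smooth muscle markers' part in the vessel tone values was not tested. EDNRB, an endothelin receptor, had 0.42 (SE 0.21), and AGTR1, the angiotensin receptor that cortex cells also carry, 0.14 (SE 0.13). Of 8 coagulation genes 5 were higher (median 0.05). THBD, which turns thrombin to an anticoagulant role, had -0.29 (SE 0.13), while TFPI2, a protease inhibitor, had 0.20 (SE 0.09). The 14 adhesion and junction genes were 7 higher and 7 lower, with -0.13 for both OCLN, a tight junction protein, and EGFL7, a secreted endothelial factor; after median centring 9 were higher.

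Of 6 hypoxia regulators 4 were higher (median log2 difference 0.01), all 6 after median centring (69.7% of all genes) and 3 after quantile normalization. CA9, a carbonic anhydrase induced by low oxygen, had 0.25 (SE 0.16), and SLC2A1, a glucose transporter, 0.05 (SE 0.17). Of 7 vessel basement membrane genes 3 were higher (median -0.00), or 5 after median centring. COL15A1, a collagen of that membrane, had log2 signals of 11.85 ± 0.34 under high stress against 11.43 ± 0.33 under low stress, a log2 difference of 0.42 (95% confidence interval 0.07 to 0.76), and LAMB1, a laminin chain, had -0.22 (SE 0.12). COL15A1, THBD, LMO2 and TFPI2 were the 4 genes with an unadjusted p under 0.05.

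**Figure D5:**
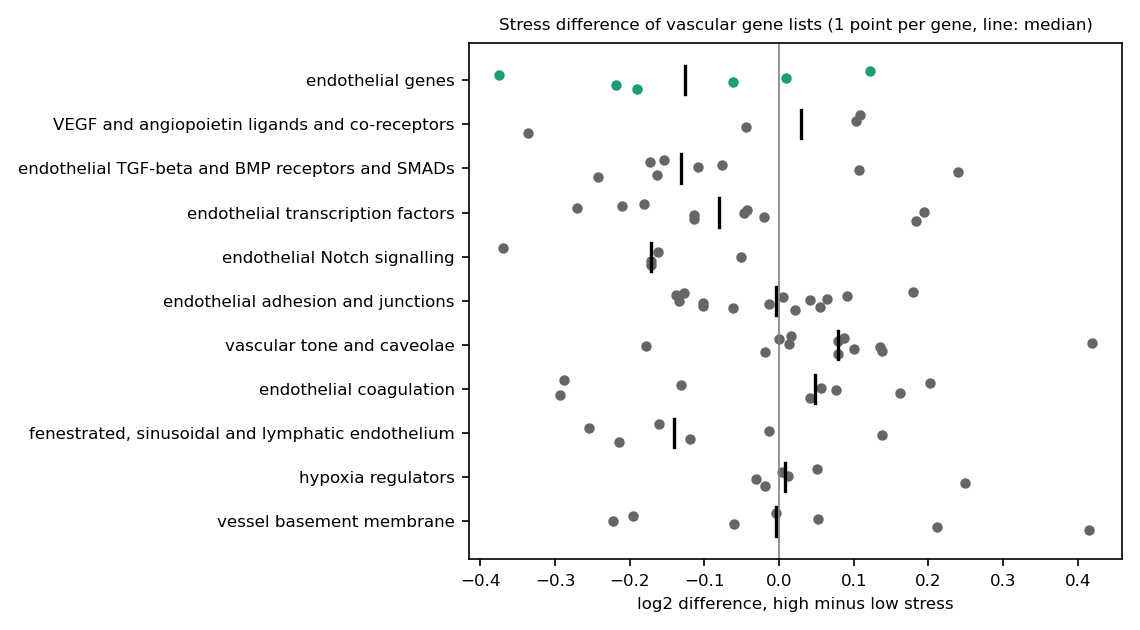
Log2 difference, high minus low stress, of each tested gene (points, brightest probe set) in the endothelial list and 10 lists of vascular genes, with the median of each list as a bar. Medians lie between -0.17 for Notch signalling and 0.08 for vascular tone and caveolae, with the points of most lists on both sides of 0.

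The genes whose pattern across animals was most like the 6 endothelial genes were found by the mean, over both spike-in sets, of r within a set with the mean standardised signal of the 6, among 7272 probe sets with 1 symbol. The 10 most like were CXXC5, CYBA, VPS39, FAM57A, RUFY1, EVA1B, NOL12, PRKAB1, PAPPA and IL4R, with mean r from 0.89 for CXXC5 to 0.75 for IL4R. The 5 most unlike were SLC25A4, ALDH7A1, TMEM131, PTGES3 and UBE2D2, with mean r from -0.83 to -0.80. None of these 15 genes was in any of the lists used here. CXXC5 had r = 0.89 in each set, and CYBA, a subunit of the NADPH oxidase, 0.84 in the low-spike and 0.87 in the high-spike set. These values are the extremes of a search over all named probe sets on 8 arrays a set, and they describe these arrays without a test. The mean itself was carried unevenly by the 6 genes. Against the mean of the other 5, PECAM1 had r of 0.38 in the low-spike and 0.75 in the high-spike set, ENG 0.46 and 0.67, and TIE1 0.31 and 0.33, while CDH5 had -0.05 and 0.51, VWF -0.75 and 0.19 and TEK -0.12 and -0.05.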

How the data were processed

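Total RNA of 16 porcine adrenal glands was hybridised to the Affymetrix Porcine Genome Array, 1 array per sample. The authors deposited linear signal intensities per probe set, which the submitters' processing notes credit to MAS5 and to version 1.1.1 of Expression Console; trimmed means of 500.1 on every array show a common scaling. Here the deposited intensities were taken to log2, 124 control probe sets were left out of 24123, and probe sets under the 40th percentile of mean log2 signal were removed, leaving 14399. Symbols came from the platform annotation (10069 probe sets with 1 symbol, 198 with several, 13732 with none); 9961 were found in the RefSeq gene table. Groups were compared with limma 3.58.1 (R 4.3.3, lmFit and eBayes, two-sided) and Benjamini-Hochberg adjustment over all probe sets tested, with the brightest probe set per gene for lists. Replicates are single animals, and their number limits the precision. The 2 sets of arrays were divided at the largest gap in the log2 signal of the dap control, and correlations were computed within each set with exact permutation tests (scipy 1.17.1). Members, gene lists and tests were chosen with earlier results of these data known. The genes named were all members, at most 2 genes with the smallest p per other gene list, and the 10 most like and 5 most unlike genes; the genes most like single members in the closing section were named after their values were seen. Alternatives were no filter, a 60th percentile filter, quantile normalization, median centring, a pseudocount, a trended robust prior and array weights. Further alternatives were blocks, the EIF1AY signal as a covariate, each set alone and each animal left out.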

Additional observations from a re-analysis of the deposited data

Results flagged for a closer look

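In 34 groups of 8 animals (17 probe sets in 2 stress groups), 4 held a sample far from the others by Dixon's ratio, and chance gives such a gap in about 1 of 20 groups. All 4 were in probe sets below the filter. The middle FLT1 probe set had a log2 signal of 1.82 in low stress replicate 8, against 4.13 to 5.34 in the others of its group. The brighter KDR probe set had 3.26 in the same animal, against 5.31 to 6.22. The dimmest TEK probe set had 5.23 in high stress replicate 6, against 0.86 to 2.92. The middle TEK probe set had 1.86 in low stress replicate 7, against 4.05 to 5.39.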

How the results depend on the processing

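No endothelial probe set passed an adjusted p of 0.05 for stress (limma) under any of 28 alternatives, and the smallest adjusted p of any was 0.527, for the middle TEK probe set without 1 animal. Over all probe sets 1 passed with the spike-in set as a block and 0 otherwise. The median log2 difference of the tested genes was -0.062 with the filter at the 60th percentile, which leaves out TIE1, and -0.053 after median centring; without single animals it was -0.16 to -0.10. The dimmest FLT1 probe set changed sign to 0.062 after quantile normalization, 0.033 after median centring, 0.0035 with a pseudocount and 0.011 within the high-spike set, and ranged from -0.29 to 0.25 without single animals. The brighter PECAM1 probe set had 0.011 after median centring and the dimmer 0.062 within the low-spike set. The brightest TEK probe set had -0.017 with array weights, -0.074 within the high-spike set and -0.055 to 0.067 without single animals. The brighter KDR probe set had -0.033 within the low-spike set and -0.064 to 0.39 without single animals, and the middle FLT1 probe set -0.22 to 0.53. The median correlation between the genes was -0.19 to 0.17 without single animals in the low-spike set and 0.08 to 0.27 in the high-spike set. Median centring gave -0.012 in the low-spike and -0.022 in the high-spike set. The cause of these changes was not tested. The other 11 probe sets kept their sign throughout. No paired analysis was possible because the labels give no replicate numbers; with animals blocked by the leading digit of their number 0 probe sets passed. The pseudocount shrank the differences of dim probe sets, and signals near the bottom of the scale limit what can be read from KDR and FLT1.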

Other observations

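The named probe set most like each single endothelial gene, chosen after the values were seen and given without a test, was SIGIRR for CDH5 (mean r over both spike-in sets 0.86), DDA1 for ENG (0.89), CXXC5 for PECAM1 (0.86), PPP4R2 for TEK (0.83), LOC100624648 for TIE1 (0.85) and CAMK2N1 for VWF (0.81). MCAM, the adhesion molecule CD146 of endothelial cells and pericytes, was the next after SIGIRR for CDH5, with r = 0.74 in the low-spike and 0.81 in the high-spike set. DEAF1 followed MCAM at the same rounded mean r of 0.77. The next for the other genes were RIPOR1 for ENG, CTSC for PECAM1, NCK2 for TEK, ST6GALNAC4 for TIE1 and MAP2 for VWF.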
